A study of Mus musculus with 9 samples.

Results

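The proteasome subunit genes of the mouse hippocampus were examined by RNA sequencing. The rule that picks them reads the gene's biotype and symbol and no measured value: protein-coding genes whose symbol begins with Psma, Psmb, Psmc or Psmd followed by a digit. This rule found 40 genes among the 54532 genes listed, of which 22046 were protein coding. Of the 40, 31 encode the constitutive subunits, 14 of the core and 17 of the regulatory particle. A further 3 encode immunoproteasome subunits, 3 encode assembly chaperones of the regulatory particle, and Psma8 and Psmb11 encode the testis and thymus forms of core subunits. Psmc3ip matched the rule by its symbol, but its product acts in meiotic recombination and is not a subunit.

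Hippocampus was collected from mice of 3 groups, with 3 samples in each. The labels' protocols describe C57BL/6 males bought at 6 to 8 weeks of age, whereas the strain field of Bet+HMD replicates 2 and 3 reads C57BL/7 and C57BL/8. Standard chow was fed to the Con mice. The HMD mice received a high-methionine diet for 8 weeks. The Bet+HMD mice received that diet for 8 weeks and then betaine at 2.5% (w/v) in the drinking water for 2 weeks. Whether the diet went on during those weeks is not clear, and no group received betaine with the standard diet. The study's methods describe female mice and no betaine group. The columns of the Con samples carry another prefix and were matched to Con by inference. All 9 samples were compared on the scale of the later of 2 deposited tables, the one that holds the betaine samples, as FPKM (fragments per kilobase of gene, scaled to the size of the library). Reads assigned to genes ran from 16031464 to 18291952 per library. The Bet+HMD libraries had reads at 25315 to 25663 genes, and the other libraries at 20816 to 23272 genes. The earlier of the tables lacks the Bet+HMD samples, so the betaine treatment and whatever else set those libraries apart cannot be told apart.

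The proteasome is the enzyme complex that degrades proteins tagged with ubiquitin. Its 20S core is a barrel of stacked rings, in which the alpha subunits form the gate and the beta subunits hold the proteolytic sites. The 19S regulatory particle caps the core: its ring of ATPases (Psmc genes) unfolds substrates, and its non-ATPase subunits (Psmd genes) bind and remove ubiquitin. In neurons the complex is known to take part in synaptic plasticity and protein quality control.

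The promoters of these genes were searched for a pair of known motifs. RefSeq windows on GRCm38.p6, from 250 bases before to 50 bases after the start of transcription, were found for 33 of the 40 genes. Both strands were searched for TGACNNNGC, the antioxidant response element that binds the Nfe2l1 and Nfe2l2 factors known to induce proteasome genes, and for CCAAT, the box bound by NF-Y. The first motif was found at 5 of the 33 genes (15.2%) and at 3781 of 27025 genes in all (14%). CCAAT was found at 14 of the 33 (42.4%) and at 41.1% of all genes. The shares were close to those of all genes, and 0 of the 33 genes held both. Stretches of 150 bases upstream of annotated exons are shown, for the genes whose levels later stood lowest (Psma6, Psmb5, Psmb4) and highest (Psmc1, Psmd11) in Bet+HMD against HMD, and for Psmb6, the other catalytic gene with the element. Capitals mark TGACNNNGC at Psmb5 and Psmb6 and CCAAT at Psmc1. Psma6 has a pair of windows, and the stretch shown belongs to the start of its principal transcript, inside the gene. The CCAAT for which Psma6 is counted lies in the other window, at the start of the gene. A match is a description and not a bound site.
Psma6: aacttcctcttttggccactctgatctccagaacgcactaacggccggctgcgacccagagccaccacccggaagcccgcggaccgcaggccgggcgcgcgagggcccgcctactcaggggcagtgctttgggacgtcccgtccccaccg
Psmb5: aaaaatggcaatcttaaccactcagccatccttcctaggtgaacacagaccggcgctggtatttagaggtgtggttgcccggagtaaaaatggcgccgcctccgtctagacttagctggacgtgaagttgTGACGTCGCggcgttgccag
Psmb4: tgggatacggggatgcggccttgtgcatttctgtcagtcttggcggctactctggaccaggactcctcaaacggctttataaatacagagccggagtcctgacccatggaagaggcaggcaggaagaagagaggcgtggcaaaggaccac
Psmb6: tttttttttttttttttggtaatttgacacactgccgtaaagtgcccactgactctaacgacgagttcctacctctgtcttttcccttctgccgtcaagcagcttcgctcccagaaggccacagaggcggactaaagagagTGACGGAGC
Psmc1: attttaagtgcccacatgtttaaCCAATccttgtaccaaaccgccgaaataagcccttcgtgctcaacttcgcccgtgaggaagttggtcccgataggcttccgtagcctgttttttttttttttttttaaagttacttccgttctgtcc
Psmd11: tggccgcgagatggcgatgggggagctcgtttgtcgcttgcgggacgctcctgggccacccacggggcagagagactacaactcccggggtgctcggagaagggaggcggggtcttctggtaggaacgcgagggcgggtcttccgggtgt

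The stretch of Psma6 is chr12:55398625-55398774 (plus strand), that of Psmb5 is chr14:54618023-54618172 (minus strand), that of Psmb4 is chr3:94886962-94887111 (minus strand), that of Psmb6 is chr11:70525207-70525356 (plus strand), that of Psmc1 is chr12:100110004-100110153 (plus strand) and that of Psmd11 is chr11:80428465-80428614 (plus strand), each written 5′ to 3′ on the strand of its gene. The element began 47 bases before the start of Psmb5 and 9 bases before that of Psmb6. The longer windows of Psmc6, Psmd9 and Psmd12 also held it. Among the 23 genes with a window that were lower in Bet+HMD than in HMD, 4 held the element (17.4%) and 9 held CCAAT (39.1%). The other 10 genes with a window were not called or, as Psmb8, Psmb9, Psmb11 and Psmc3ip, were not tested in this comparison. Among these 10, 1 held the element and 5 held CCAAT. The untested Psmb9, Psmb11 and Psmc3ip were among the genes with CCAAT.

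In the Con hippocampus the constitutive subunits covered a wide range of levels per gene length. Psmc5, an ATPase of the 19S ring, was highest at 74.6 ± 14.3 FPKM (SD, n = 3), followed by the alpha subunit Psma6 at 72.0 ± 8.06 and the catalytic subunit Psmb5 at 64.7 ± 16.9. These 3 genes did not differ beyond their spread. Psmc1, Psmb4 and Psmd2 followed, with means of 49.1 to 52.7 FPKM. The lowest constitutive subunit was Psmd11, at 7.53 ± 0.304 FPKM, and the assembly chaperone Psmd9 was lower still, at 2.59 ± 0.887 FPKM. The order between genes depends on the length used. The table's length joins all exons of a gene, which is 2.35 times the principal GENCODE M21 transcript for Psmb6 and 1.00 times for Psmb5. Comparisons between groups use the same length for each gene.

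**Figure D1:**
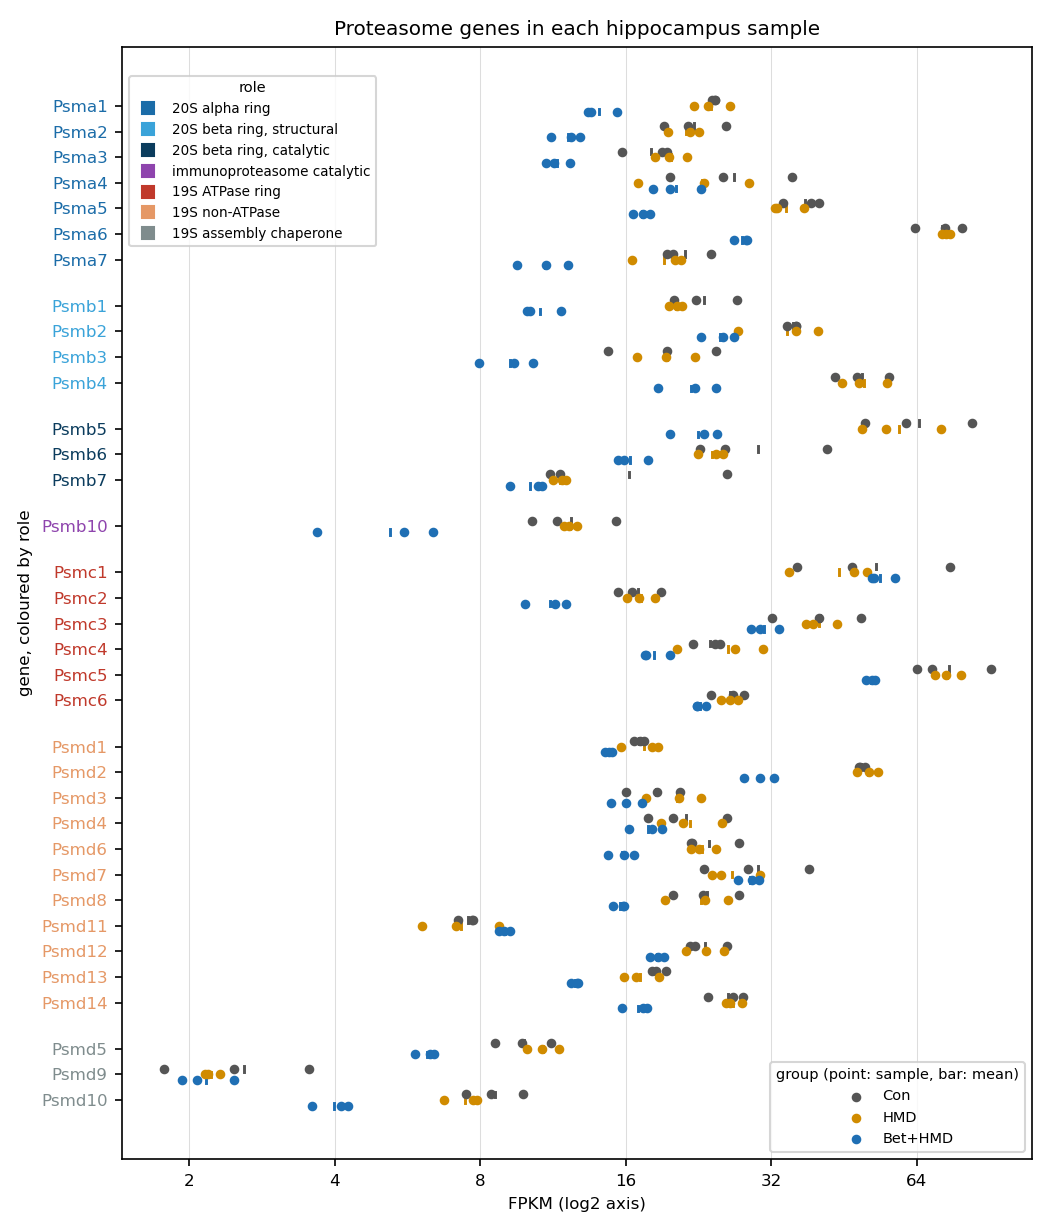
FPKM on a log2 axis of the 35 proteasome genes with a mean of at least 1 FPKM over the 9 samples, ordered by role, with 1 point per sample, a bar at each group mean (n = 3) and a colour per group. Most genes of the 20S core had all 3 Bet+HMD samples below all Con and HMD samples, as for Psma6 (Bet+HMD 26.8 to 28.5 FPKM), while Psmc1 and Psmd11 did not.

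The first question was whether the high-methionine diet changed proteasome expression. No proteasome gene was called between HMD and Con, which does not show that the genes were unchanged. Of the 40 genes, 35 passed the filter of a mean of at least 1 FPKM in these samples, and 0 of 35 passed the test (limma, Benjamini-Hochberg adjusted p of at least 0.979). None had an unadjusted p under 0.05, and limma voom on the recovered reads also called 0. Over all 13004 genes tested, 0.0% were called and 588 had an unadjusted p under 0.05. The median log2 fold change of the 35 genes was -0.02, beside -0.008 for all genes, and the values ran from -0.34 to 0.14. Groups without overlap were found at 0 of the 35 genes, beside 9.61% of all genes.

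The largest differences in this comparison were in genes with a wide spread among the Con samples. Psmb7, which carries the trypsin-like site, had 11.7, 11.2 and 26.0 FPKM in the Con samples and 11.3, 12.0 and 11.8 in the HMD samples. The log2 difference was -0.34 ± 0.288 (SE), and it was 0.033 without Con replicate 3. Psmb6, which carries the caspase-like site, had 25.6, 22.8 and 41.7 FPKM in Con and 24.6, 22.6 and 25.4 in HMD (log2 difference -0.26 ± 0.213). Psma4, an alpha subunit, had 25.4, 19.8 and 35.3 FPKM in Con and 23.2, 17 and 28.7 in HMD (log2 difference -0.21 ± 0.247, and 0.002 without Con replicate 3). In each of these genes the third Con sample stood above the other Con samples. It was the highest of its group at 22 of 35 genes, with a median log2 difference of 0.27 from the other two, beside -0.0004 over all genes. Psmb7 overlaps a microRNA gene on its own strand and Nek6 on the other strand, so its reads are less certain.

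Upward differences were smaller. Psmd3, a scaffold subunit of the lid, had 20.7, 16 and 18.6 FPKM in Con and 20.6, 17.6 and 22.9 in HMD (log2 difference 0.14 ± 0.141). The alpha subunit Psma3 had 15.7, 19.5 and 19 FPKM in Con and 19.7, 21.4 and 18.4 in HMD (0.13 ± 0.123). Psmd5, which holds ATPases apart during assembly, had 9.77, 11.2 and 8.58 FPKM in Con and 10.0, 11.6 and 10.7 in HMD (0.12 ± 0.125). The groups overlapped in all of these.

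The second question was whether betaine after the diet changed proteasome expression. Proteasome genes were lower in Bet+HMD than in HMD as a group. Of 35 genes tested, 27 were lower and 0 were higher at an adjusted p under 0.05, with a median log2 fold change of -0.52. This comparison moved much of the transcriptome: 48.3% of 13672 genes were called, 25.5% lower and 22.8% higher, with a median of -0.03. Groups without overlap were found in the lower direction at 29 of the 35 genes, beside 31.8% of all genes. A fall of at least 1 on the log2 scale was called at 5 of the 35, beside 2.79% of all genes. When FPKM were rescaled to a common sum (TPM), 20 genes were lower and 3 higher. More genes passed the filter on that scale (18352), and their median was 0.23. The share of all genes called is not given for the TPM scale or for the other settings. Relative to the median of all genes tested on each scale, the 35 genes stood at -0.50 on the FPKM scale, and the 37 that passed on the TPM scale stood at -0.57. This offset was smaller in other settings. It was -0.30 after quantile normalization, -0.40 after removal of the length trend and -0.39 with a filter at 5 FPKM. A smaller share of the cells that express a gene and less of its RNA per cell cannot be told apart in whole tissue.

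**Figure D2:**
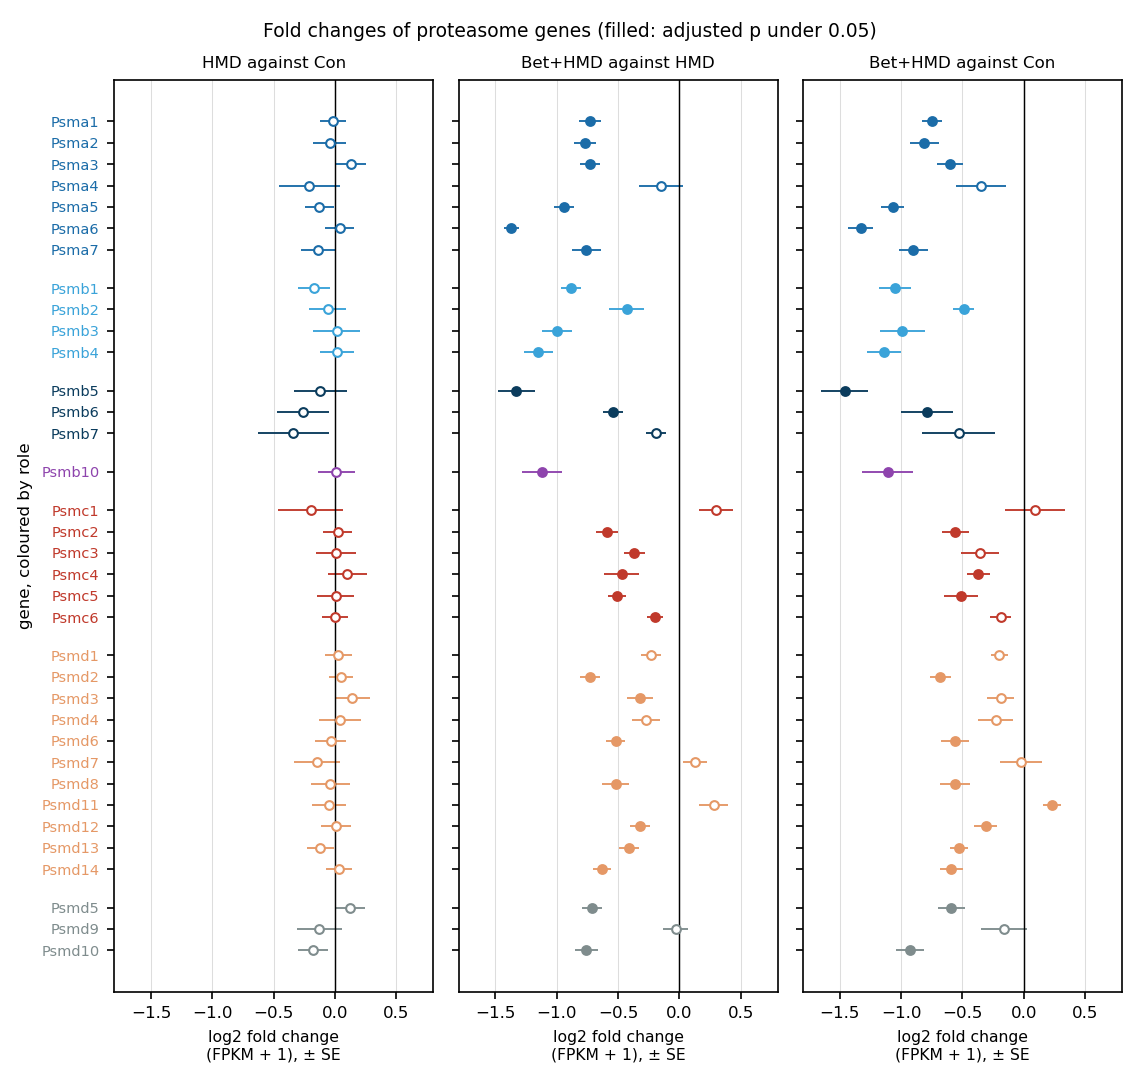
Log2 fold change on the log2(FPKM + 1) scale with its SE (n = 3 per group) for the same genes in each comparison, filled where the adjusted p was under 0.05. No gene was filled for HMD against Con, whereas 27 were filled below 0 for Bet+HMD against HMD, down to -1.37 at Psma6.

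The alpha ring was lower almost throughout, with 6 of 7 genes called. Psma6 had 72.2, 74.9 and 73.6 FPKM in HMD and 28.3, 28.5 and 26.8 in Bet+HMD. The Bet+HMD samples were thus at 37.8% of the HMD mean, with no overlap (log2 fold change -1.37 ± 0.063, limma adjusted p = 2.54e-05). Psma6 lies on chromosome 12 (55384222 to 55418454, plus strand, mm10), and a ribosomal protein pseudogene lies within it on the other strand. Psma5 fell to 50.5% of HMD (34.2 ± 2.70 to 17.3 ± 0.720 FPKM). Psma1, Psma2, Psma3 and Psma7 fell to between 56.8% and 58.6%. Psma4 was not called, at 88.3% of HMD with overlapping samples (22.9, 19.8 and 18.2 FPKM in Bet+HMD, adjusted p = 0.532).

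In the beta ring 6 of 7 genes were called lower. Psmb5, which carries the chymotrypsin-like site, had 55.2, 71.9 and 49.2 FPKM in HMD and 23.2, 24.7 and 19.7 in Bet+HMD. All Bet+HMD samples lay below all HMD samples (log2 fold change -1.33 ± 0.149, limma adjusted p = 0.000504). Psmb5 lies on chromosome 14 (54614119 to 54618022, minus strand), with a microRNA gene inside it on the same strand. Psmb6 had 15.9, 17.8 and 15.4 FPKM in Bet+HMD, beside 22.6 to 25.4 in HMD (-0.54 ± 0.0829, adjusted p = 0.00191). Psmb7 had 10.7, 10.5 and 9.20 FPKM in Bet+HMD. It did not pass the test, although its groups did not overlap (-0.19 ± 0.0797, adjusted p = 0.0844). The 3 genes of the constitutive proteolytic sites were therefore at 38.4%, 67.7% and 86.7% of their HMD means.

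Among the beta subunits without a proteolytic site, all 4 were lower. Psmb4 had 44.8, 48.5 and 55.6 FPKM in HMD and 24.5, 22.2 and 18.6 in Bet+HMD (-1.15 ± 0.121, limma adjusted p = 0.000399). Psmb3 fell to 47.3%, Psmb1 to 52.2% and Psmb2 to 72.7% of HMD.

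The immunoproteasome subunits replace the catalytic subunits in immune cells and under interferon. Psmb10, the counterpart of Psmb7, was the only member of this set that passed the filter. It had 12.2, 12.7 and 11.9 FPKM in HMD and 6.38, 5.57 and 3.67 in Bet+HMD (-1.12 ± 0.161, limma adjusted p = 0.00139). In Con it had 11.5, 10.2 and 15.3 FPKM. As a percent of Psmb7, Psmb10 was 58.8 to 98.5 in Con, 101 to 108 in HMD and 39.9 to 59.4 in Bet+HMD. Psmb8, the counterpart of Psmb5, lay between 0.252 and 0.897 FPKM in all 9 samples (12 to 42 reads). Psmb9, the counterpart of Psmb6, lay between 0.079 and 0.543 FPKM (5 to 34 reads). Both were below the filter and were not tested. In each library the FPKM of Psmb8 was 0.556% to 2.76% of that of Psmb5, and that of Psmb9 was 0.496% to 1.90% of that of Psmb6.

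Some interferon response genes and microglial markers were also lower, beside 25.5% of all genes called lower. Summed FPKM of 8 microglial markers was 103 to 108 in Bet+HMD, 124 to 143 in HMD and 145 to 166 in Con, and 4 of 8 were called lower against HMD. Summed FPKM of 10 interferon response genes was 96.1 to 116 in Bet+HMD, 140 to 150 in HMD and 139 to 180 in Con. Of 7 tested, 3 were lower and 1 was higher against HMD. All markers of both lists were detected. Their part in the level of Psmb10 was not tested.

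The 19S regulatory particle was lower to a smaller degree. Of its 17 genes, 12 were lower and 0 higher, with a median log2 fold change of -0.37, beside -0.76 for the 14 genes of the core. On the TPM scale 6 of the 17 were lower and 3 higher, and after quantile normalization 6 were lower and 2 higher. The core had 11 lower and 0 higher under either. Relative to all genes, the median of the 19S genes was -0.35 on the FPKM scale and -0.11 after quantile normalization. That of the core genes was -0.74 and -0.59. In the ATPase ring 5 of 6 genes were called lower, from Psmc2 at 64.7% of HMD to Psmc6 at 86.8%. Psmc1, the remaining ATPase, had 47.4, 34.7 and 50.4 FPKM in HMD and 57.7, 51.7 and 52.1 in Bet+HMD. Its Bet+HMD samples lay above all HMD samples, but it did not pass the test (0.30 ± 0.139, limma adjusted p = 0.118). It passed on the TPM scale, after quantile normalization, with voom and after removal of the length trend (0.35 to 0.59).

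Of the 11 non-ATPase subunits, 7 were lower. Psmd2, a large subunit that docks ubiquitin carriers, had the largest fall, to 59.7% of HMD (50.8 ± 2.59 to 30.3 ± 2.16 FPKM). Psmd14, the deubiquitinase of the particle, fell to 63.6%. Psmd6, Psmd8 and Psmd13 fell to between 68.1% and 73.4%, and Psmd3 and Psmd12 to 78.8% and 79.3%. Psmd4, a ubiquitin receptor, was at 81.8% with overlapping samples and was not called, and Psmd1 was at 84.4% (adjusted p = 0.0565). Psmd11, a lid subunit whose amount limits assembly of the complex, had 7.11, 6.07 and 8.74 FPKM in HMD and 8.74, 9.24 and 8.96 in Bet+HMD (0.28 ± 0.119, limma adjusted p = 0.0919). It passed without HMD replicate 3 (0.40), on the TPM scale and with voom. Psmd7, the partner of Psmd14, had 25.2, 24.1 and 30.2 FPKM in HMD and 30.1, 27.4 and 29.2 in Bet+HMD, and was not called (0.13 ± 0.0979). It passed without HMD replicate 3 (0.22), on the TPM scale, after quantile normalization and after removal of the length trend. Of the assembly chaperones, Psmd5 fell to 57.4% and Psmd10 to 53.7%, and Psmd9 was at 97.3%.

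Sums over the genes showed the unequal change of the particles in each sample. Summed FPKM of the 14 core genes was 414, 433 and 535 in Con, 424, 434 and 444 in HMD and 242, 233 and 214 in Bet+HMD. Summed FPKM of the 17 genes of the 19S particle was 474, 439 and 567 in Con, 479, 459 and 518 in HMD and 393, 384 and 377 in Bet+HMD. The core sum divided by the 19S sum was 0.857 to 0.987 in the 6 Con and HMD samples and 0.568 to 0.615 in the Bet+HMD samples. A single scaling factor per library leaves this ratio unchanged, whereas quantile normalization or removal of the length trend can change it. The Bet+HMD samples did not overlap the others, while the Con and HMD samples overlapped. The ratio describes genes chosen for their role and has no test. As a share of assigned reads, the core took 0.0481% to 0.0553% in Bet+HMD and 0.0833% to 0.114% in the other samples.

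**Figure D3:**
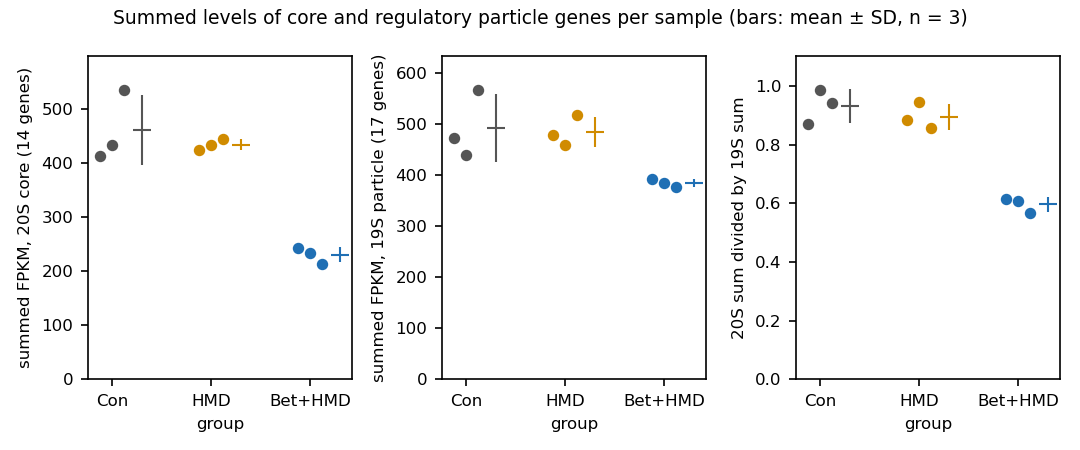
Summed FPKM of the core genes, of the 19S genes and their ratio (no unit) in each sample, with the mean and SD of each group (n = 3). The ratio was 0.934 in Con, 0.896 in HMD and 0.597 in Bet+HMD on average.

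Gene length moved with these values. In Bet+HMD against HMD the shorter protein-coding genes were lower, and the Spearman correlation of log2 fold change with length was 0.30 across 11951 protein-coding genes and 0.32 across the 35 proteasome genes, which share libraries. The 14 core genes had a median length of 2335 bases and the 17 genes of the 19S particle 2820 bases. Within each class of length the median of the proteasome genes was below that of protein-coding genes. Under 1500 bases, 6 of 6 were called lower with a median of -0.85, beside 44.4% and -0.38 for protein-coding genes. From 1500 to 3000 bases, 10 of 14 were lower with a median of -0.50, beside 39.7% and -0.22. From 3000 to 5000 bases, 9 of 10 were lower with a median of -0.62, beside 31% and -0.09. Over 5000 bases, 2 of 5 were lower with a median of -0.23, beside 16.8% and 0.04. When the trend with length was removed from each sample, 21 proteasome genes were lower and 2 higher, with medians of -0.64 in the core and -0.23 in the 19S particle. The median of all genes tested was 0.04 in that fit, and the share of them called is not given here. Whether gene length accounts for the lower values was not tested.

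**Figure D4:**
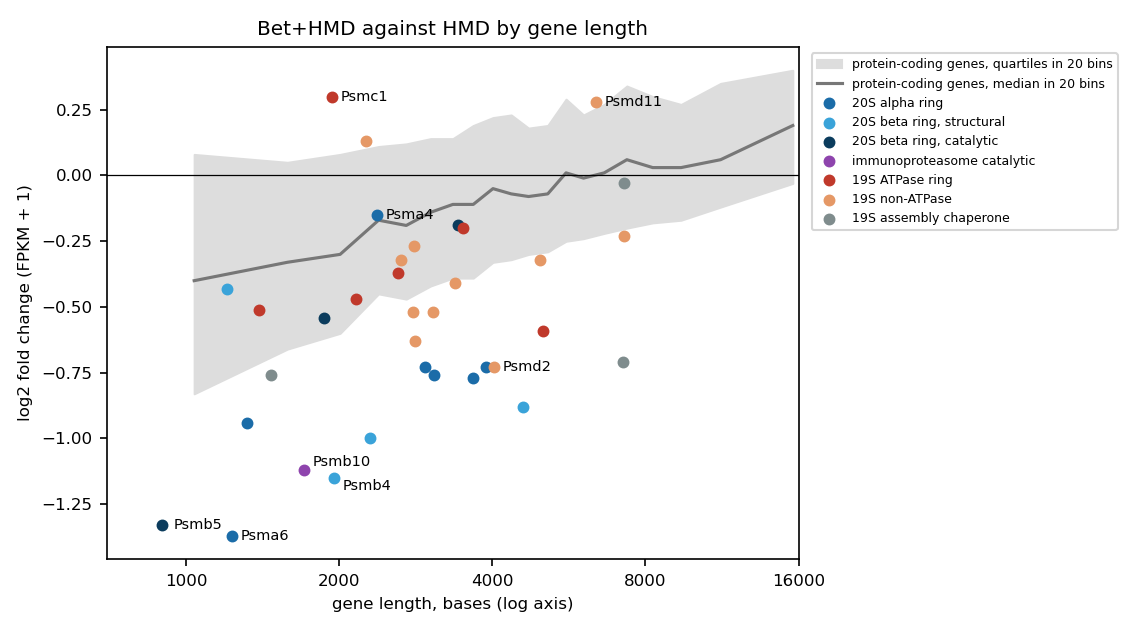
Log2 fold change of Bet+HMD against HMD by gene length (log axis) for the 35 proteasome genes tested, coloured by role, over the median and quartiles of protein-coding genes in 20 bins of length. Most core genes lay below the lower quartile, as did Psmb5 (-1.33) and Psma6 (-1.37), and Psmc1 (0.30) lay above the upper quartile.

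Other large assemblies of housekeeping proteins were lower as well. Of 78 genes of cytosolic ribosomal proteins tested, 61 were lower and 0 higher, with a median log2 fold change of -1.09. Of 81 nuclear genes of the respiratory chain, 60 were lower and 3 higher, with a median of -0.73. The proteasome genes had 27 of 35 lower and a median of -0.52. Whether these groups differ was not tested.

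In Bet+HMD against Con, 24 of 36 genes were lower and 1 was higher, with a median log2 fold change of -0.56, beside -0.04 for all genes. Over 13643 genes, 39.7% were called, 20.4% lower and 19.4% higher. Groups without overlap in the lower direction were found at 27 of the 36, beside 29.0%, and a fall of at least 1 on the log2 scale was called at 6, beside 2.97%. This comparison shares its Bet+HMD samples with the one against HMD, so the values are not independent. Psmb5 was lowest, at 34.8% of Con (50, 60.9 and 83.2 FPKM in Con, -1.46 ± 0.189, limma adjusted p = 0.00167). Psma6 was at 38.7% (63.4, 79.4 and 73.2 FPKM in Con, -1.33 ± 0.103) and Psmb4 at 44.3% (48.1, 43.3 and 56.2 FPKM in Con, -1.14 ± 0.137). In the core 12 of 14 genes were lower and in the 19S particle 9 of 17. Psmb6 was lower (-0.79 ± 0.214, adjusted p = 0.0248), and this call was lost without any 1 of the Bet+HMD samples (limma adjusted p = 0.058 to 0.0833) and in 4 other alternatives (adjusted p = 0.0507 to 0.0895). Psmb7 was not called, with Con samples of 11.2 to 26.0 FPKM (-0.53 ± 0.296).

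Psmd11 was the gene that was higher than in Con. It had 7.74, 7.18 and 7.68 FPKM in Con, below all Bet+HMD samples (0.23 ± 0.0742, limma adjusted p = 0.0482). The call was lost in 9 of 16 alternatives, among them the fits without Con replicate 1, without Con replicate 2 and without each Bet+HMD sample (adjusted p = 0.0691 to 0.178). Psmc1 had 46.9, 36.2 and 75.1 FPKM in Con and was not called (0.091 ± 0.244). Its difference was -0.14 without Con replicate 2 and 0.37 without Con replicate 3. Psmc3ip had 1.10, 0.136 and 1.99 FPKM in Con, 0.665, 0.610 and 1.37 in HMD and 0.918, 0.840 and 1.30 in Bet+HMD, and its difference from Con was 0.062 ± 0.338.

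The tissue-restricted forms were near the limit of detection. Psma8, of the testis, had 0.033 to 0.328 FPKM (1 to 9 reads), and Psmb11, of the thymus, had 0 to 0.127 FPKM (0 to 11 reads). Neither passed the filter in any comparison.

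The 34 other genes of the pathway that were listed, from ubiquitin to assembly factors, were divided. Against HMD, 17 of 33 tested were lower and 4 higher in Bet+HMD, with a median of -0.27. Over all genes tested, 25.5% were called lower and 22.8% higher, with a median of -0.03. On the TPM scale 11 of 34 were lower and 8 higher, beside a median of 0.23 for all genes tested. The share of all genes called on that scale is not given here. All 4 tested chaperones of core assembly were lower. Psmg4, which helps to build the alpha ring, had 6.95, 9.88 and 10.7 FPKM in HMD and 2.28, 3.26 and 3.52 in Bet+HMD (-1.33 ± 0.178, limma adjusted p = 0.00101), and Pomp, which matures the beta ring, fell to 5.37 from 12.0 FPKM. The fifth, Psmg3, was at 0.585 FPKM and not tested. Of the 4 genes that control proteasome transcription, 0 were called against HMD and 1 was called lower against Con. Nfe2l1, which encodes the factor that induces proteasome genes when the complex is impaired, had a mean of 47.4 FPKM in Bet+HMD and 42.3 in HMD (0.16, adjusted p = 0.162), and Nfe2l2 had 5.25 and 5.85 (-0.13, adjusted p = 0.153).

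A gene for ubiquitin itself showed a larger change. Rps27a, whose product is ubiquitin fused to a ribosomal protein, had 31.6, 33.0 and 28.0 FPKM in HMD and 6.42, 7.08 and 7.11 in Bet+HMD (-2.01 ± 0.0851, limma adjusted p = 1.84e-05). The Bet+HMD samples were at 22.3% of the HMD mean, with no overlap. Rps27a is also counted among the 78 ribosomal protein genes tested, of which 61 were lower, with a median of -1.09. Ubiquitin genes resemble each other and have processed copies, so that their reads are uncertain. Of the activators, Psme2 was higher and Psme1 lower than in HMD. Among 9 shuttle and unfolding factors, 6 were lower, Ubqln2 (-0.75) and Zfand5 (-0.60) most, and the shuttle gene Rad23b (0.32) was higher.

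**Figure D5:**
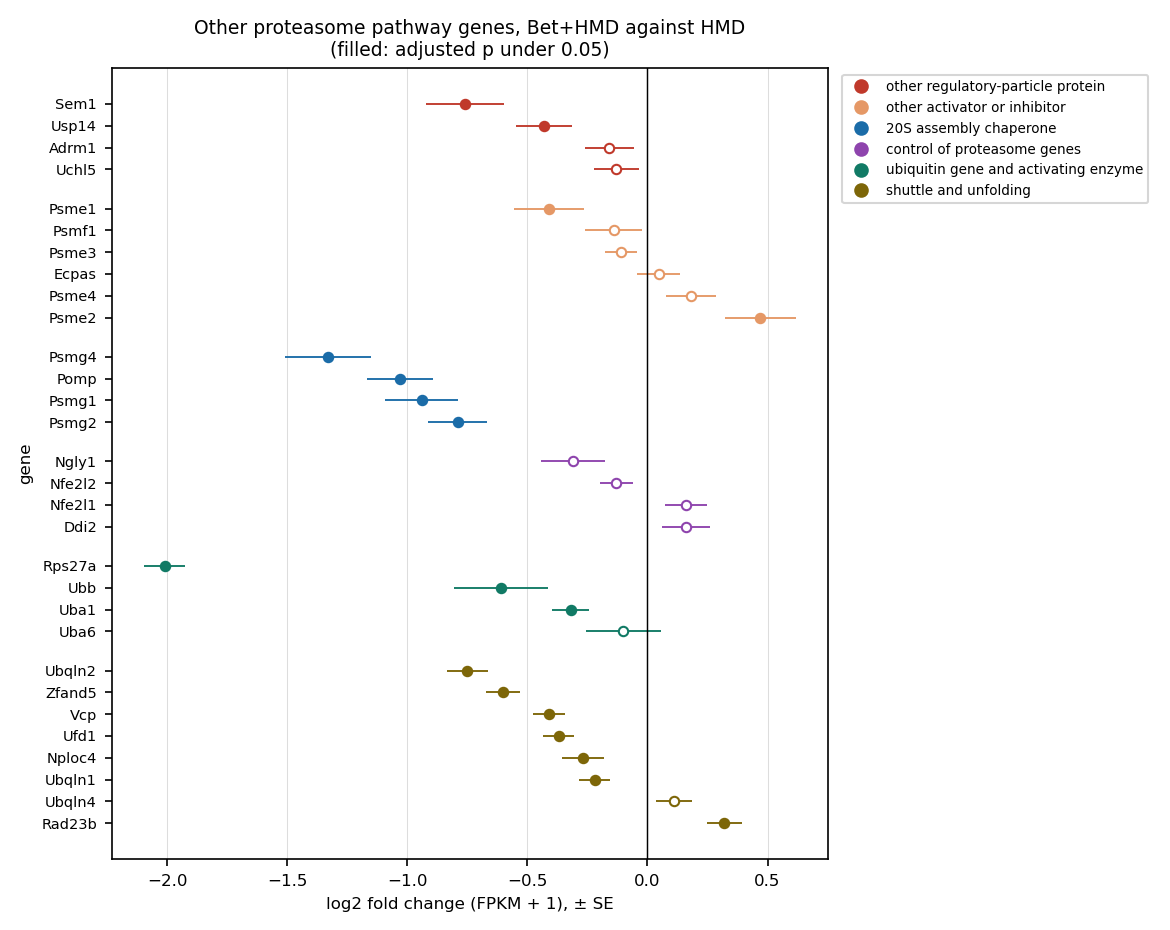
Log2 fold change of Bet+HMD against HMD, with its SE (n = 3 per group), for 30 of the 33 other pathway genes tested, grouped by role and filled where the adjusted p was under 0.05. Rps27a (-2.01) and Psme2 (0.47) were at the ends of the range drawn, and the 4 chaperones of core assembly lay at or below -0.79.

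Against Con, 13 of 33 pathway genes were lower and 0 higher, beside 20.4% lower and 19.4% higher of all genes tested. However, 7 were lower and 7 higher on the TPM scale, and 9 lower and 6 higher after quantile normalization. The medians of all genes tested were 0.24 and -0.04 in these settings, and the shares of them called are not given here. Rps27a (-2.01 ± 0.0877) and Psmg4 (-1.57 ± 0.26) had the largest falls. Without Bet+HMD replicate 3 the count of pathway genes called on the FPKM scale was 8. In HMD against Con 0 of 34 were called, and 1 had an unadjusted p under 0.05 (limma adjusted p of at least 0.979).

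Markers of the labelled tissue were present in all samples, with a summed FPKM of 158 to 216 for 6 genes of hippocampal neurons. Of these, 2 of 6 were called lower in Bet+HMD than in HMD. Over all genes, 25.5% were called lower in that comparison. Thalamic markers summed to 22.4 to 64.1 FPKM in HMD, 12.3 to 15.4 in Con and 14.6 to 16.4 in Bet+HMD. Of 5 tested, 3 were lower in Bet+HMD than in HMD. Choroid plexus markers ran from 768 to 3190 within Con, and 0 of 4 were lower in Bet+HMD than in HMD. Blood cell markers summed to 149 to 233 FPKM in HMD, 72.2 to 122 in Bet+HMD and 99.8 to 148 in Con, and 2 of 5 were lower in Bet+HMD than in HMD. Astrocyte markers were 201 to 221 in HMD and 175 to 177 in Bet+HMD (1 of 4 lower), and endothelial markers 22.9 to 26.5 and 20.9 to 21.7 (1 of 3 lower). Oligodendrocyte markers overlapped, at 579 to 777 in HMD and 572 to 582 in Bet+HMD, with 2 of 4 lower. Striatal markers also overlapped (19.1 to 30.9 and 22.9 to 26.1), with 1 of 5 tested lower and 1 higher. The part of these tissues and cells in the proteasome results was not tested.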

How the data were processed

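RNA sequencing was compared in hippocampus from 3 groups of 3 samples. The authors depleted ribosomal RNA and made stranded paired-end libraries. The submitters' processing notes name HISAT2 2.1.0, featureCounts 1.5.0-p3 and build mm10, and the study's methods name other versions. The annotation release and the strand setting of counting are not given in the sources used here. The authors deposited 2 tables of FPKM, which also list the gene length (another unit, bases). FPKM times length and library size gave whole reads for 100% of values in every column (tolerance 0.01). Of the 40 members, 38 had their GENCODE M21 coordinates, and 20 overlapped another listed gene, 17 of them on the opposite strand.

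Linear models with an intensity trend and empirical Bayes moderation (limma 3.58.1, R 4.3.3) took log2(FPKM + 1) in the later table, from the pair of groups in question, and genes averaging 1 FPKM or more in those samples. The scale understates changes of low genes. Tests were two-sided, with Benjamini-Hochberg adjustment over all genes tested and a threshold of 0.05. Falls of 1 or more on the log2 scale are given beside it. This replaces the count test of the study, since FPKM are not counts. The labels do not say whether each sample is a separate animal, so the p-values measure the spread between these samples, which may be technical. SE is limma's moderated standard error. The fits were tested on simulated data. TMM factors for voom were computed by an own function. This gene family and its rule, the pathway genes and the markers were chosen with earlier results of these data known. Values per sample are given for Psmb5 to Psmb10, for the 3 largest rises and falls in each comparison, and for the called pathway genes with the largest change. Some pathway genes, counted in the totals, are not reported by name here. Other genes are given by role. Sequences are from RefSeq (GRCm38.p6). Alternatives covered scaling, pseudocount, filter, voom, gene length, a common fit, a replicate block, the earlier table and each sample left out. Groups of 3 were too small for an outlier test.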

Additional observations from a re-analysis of the deposited data

How the results depend on the processing

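Counts of proteasome genes called stayed within 1.5 times of those reported in every alternative. They were 0 in all alternatives of HMD against Con, 22 to 28 for Bet+HMD against HMD and 18 to 26 for Bet+HMD against Con. Leaving out each sample gave 22 to 27 and 20 to 26 called. The median log2 fold change of these genes against HMD moved by more than the spread between replicates to -0.34 on the TPM scale, -0.35 after quantile normalization and -0.36 after removal of the length trend. Against Con it moved to -0.36, -0.40 and -0.40 in the same settings. With each sample left out it ran from -0.59 to -0.50 against HMD, from -0.59 to -0.49 against Con, and from -0.08 to 0.05 for HMD against Con. Other pathway genes called numbered 14 to 22 against HMD and 8 to 18 against Con with a sample left out, the lowest of each without Bet+HMD replicate 3, and 0 for HMD against Con.

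Differences that were not called changed sign in HMD against Con for Psmb5 (0.024 without the length trend, and from -0.29 to 0.071 with a sample left out), Psmb10 (-0.10 to 0.16), Psmb7 (-0.54 to 0.033) and Psma4 (-0.40 to 0.002), and in Bet+HMD against Con for Psmc3ip (-0.44 after quantile normalization, and -0.32 to 0.13 with a sample left out) and Psmc1 (-0.14 to 0.37). The cause was not tested. Of 516 values of named genes under an alternative, 478 kept direction and side of the threshold, 16 lost the call, 12 gained it and 10 changed sign.

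Whether the replicate numbers pair the samples was not settled. After subtraction of group means, same-numbered Con and HMD samples correlated across genes at -0.0581, 0.337 and 0.32. Same-numbered samples correlated at -0.176 to 0.0171 in the comparisons with Bet+HMD. Samples with different numbers were not compared. In HMD against Con, 1057 genes had an unadjusted limma p under 0.05 with a replicate block, beside 588 without it. A fit with the replicate block called 0, 24 and 21 proteasome genes for HMD against Con, Bet+HMD against HMD and Bet+HMD against Con, and 0, 18 and 10 other pathway genes, with the medians unchanged at -0.02, -0.52 and -0.56. With 3 samples a group, small differences such as those of Psmc1 and Psmd7 could not be settled.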

Other observations

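The symbol rule also matched 4 pseudogenes of another biotype, Psmb5-ps, Psmb6-ps, Psmb6-ps2 and Psmb7-ps2. Psmb6-ps2 had 2 reads in HMD replicate 1, and the 4 were otherwise listed at 0 in all 9 samples.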
